A study of Mus musculus with 5 samples.

Results

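The 51 genes described here are the members of a DNA replication and mitosis group, chosen by symbol, with earlier results of these data known: 25 S-phase genes, 25 genes of G2 phase and mitosis (G2/M), and the G1 cyclin Ccnd1. All 51 were found among the 32285 genes of the files. Kidneys of 5 mice were dissociated after ischemia-reperfusion injury (IRI), in which blood flow is stopped and restored, and single cells were sequenced with the 10x Genomics 3′ v3.1 kit. The 48 h kidneys are those of mice 1 and 2, and the day 10 kidneys those of mice 3, 4 and 5. Each mouse gave 1 library, so n = 2 at 48 h and n = 3 at day 10 throughout. All 5 kidneys were injured, and no uninjured kidney was analysed here. The labels give no strain, genotype, age, sex or batch and do not say how long the ischemia lasted. The members were followed by cell type: where their transcripts lay at 48 h, where they lay at day 10, and which members differed between the times within a type.

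A dividing cell passes from G1 into S phase, when its DNA is copied, and through G2 into mitosis. The S-phase members include the Mcm2 to Mcm7 helicase that opens the DNA, the factors Cdc6, Cdt1, Cdc45 and Gins2 that load and start it, the sliding clamp Pcna, the nucleotide enzymes Rrm1, Rrm2, Tyms and Dut, the chromatin factors Hells, Uhrf1 and Chaf1b, and the E-type cyclins with the transcription factor E2f1. The G2/M members include the proliferation antigen Mki67, the DNA-untangling enzyme Top2a, the kinase Cdk1 with its cyclins, the Aurora and Plk1 kinases, kinetochore proteins such as Spc25 and Cenpf, the centromere histone Cenpa and spindle motors such as Kif11. In the kidney most tubule cells rest, and proximal tubule cells that survive IRI are known to re-enter the cycle, while macrophages can divide within the tissue.

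The libraries held 45887945 to 78351722 UMIs (unique molecular identifiers, each counting 1 captured transcript) over 3720 to 5912 cells kept by the authors, 23797 in all. The median per cell was 5823 and 6260 UMIs in mice 1 and 2 and 10328.5, 11750 and 10448 UMIs in mice 3, 4 and 5. Because a deeper cell shows a rare transcript more often, shares of positive cells were taken after every cell was thinned to 1000 UMIs. A total of 57 barcode sequences were shared by 2 libraries and none by 3. Levels are given as CPM, the counts per 1000000 UMIs summed over a cell type in 1 mouse, and fold changes as log2 of day 10 over 48 h with the standard error (SE).

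Some members of each phase share short promoter elements, and upstream sequences are shown because the results are given by phase. E2F sites are bound by the E2F factors that switch on S-phase genes, and the cell cycle homology region TTTGAA by the complexes that time G2/M genes. In RefSeq promoter windows (GRCm38.p6, 250 bases before to 50 after the start), 42 of the 51 members were matched, 21 of 25 in each phase. An E2F site (TTTCCCGC, TTTCGCGC, TTTGCCGC or TTTGGCGC on either strand) was present in 8 of 21 S-phase windows (38.1%), 1 of 21 G2/M windows (4.76%) and 2.60% of all 27025 windows. The TTTGAA element, on either strand, was present in 3 of 21 S-phase windows (14.3%), 16 of 21 G2/M windows (76.2%) and 20.2% of all windows. The CCAAT box, on either strand, was present in 57.1% of S-phase, 85.7% of G2/M and 41.1% of all windows. The 150 bases before the start follow for 3 S-phase and 3 G2/M members, 5′ to 3′ on the gene's strand, with E2F sites and TTTGAA elements (or their reverse complements) in capitals. The members shown were picked from those with a match in these 150 bases. E2F sites can overlap one another, as in the first run of capitals of Mcm6.
Mcm6, chr1:128359706-128359855, reverse strand: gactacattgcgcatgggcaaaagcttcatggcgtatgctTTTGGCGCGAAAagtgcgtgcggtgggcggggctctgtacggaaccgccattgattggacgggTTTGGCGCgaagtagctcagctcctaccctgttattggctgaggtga
Hells, chr19:38930840-38930989, forward strand: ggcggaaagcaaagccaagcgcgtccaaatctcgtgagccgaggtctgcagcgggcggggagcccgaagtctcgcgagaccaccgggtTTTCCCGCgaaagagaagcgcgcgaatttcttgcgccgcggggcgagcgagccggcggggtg
Cdc6, chr11:98908001-98908150, forward strand: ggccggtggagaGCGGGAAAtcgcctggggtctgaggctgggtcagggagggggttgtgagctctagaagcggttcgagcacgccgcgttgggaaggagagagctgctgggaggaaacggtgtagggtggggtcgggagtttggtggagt
Mki67, chr7:135716380-135716529, reverse strand: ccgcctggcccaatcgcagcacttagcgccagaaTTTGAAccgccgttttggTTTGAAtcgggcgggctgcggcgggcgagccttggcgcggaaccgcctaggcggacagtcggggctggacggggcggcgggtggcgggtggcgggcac
Top2a, chr11:99024190-99024339, reverse strand: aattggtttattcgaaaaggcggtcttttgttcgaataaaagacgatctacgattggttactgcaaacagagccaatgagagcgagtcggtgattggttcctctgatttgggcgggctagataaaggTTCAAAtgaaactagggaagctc
Cdk1, chr10:69352913-69353062, reverse strand: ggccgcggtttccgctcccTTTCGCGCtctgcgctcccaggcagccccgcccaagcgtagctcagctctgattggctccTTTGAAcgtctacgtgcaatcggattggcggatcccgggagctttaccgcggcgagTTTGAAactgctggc

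Cdk1 was the 1 G2/M member whose window held both kinds of element. A match describes the letters of the window and says nothing of binding in these cells.

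The authors gave 290 cells the label Cycling PTEC (proximal tubule epithelial cells), 117 and 86 in mice 1 and 2 and 34, 18 and 35 in mice 3, 4 and 5. Proximal tubule markers in these cells were lower at day 10 than at 48 h, without overlap. The summed level of the proximal tubule markers (Lrp2, Slc34a1 and others) in them was 2141 and 4564 CPM at 48 h and 173, 145 and 211 CPM at day 10. In cells labelled as the S1 segment of the proximal tubule the same markers stood at 5123 and 7906 CPM at 48 h and 7478, 7034 and 8746 CPM at day 10. The thick ascending limb, another nephron segment, held 47.8 to 114.1 CPM of them over the 5 mice. The labelled cycling cells of day 10 thus lay nearer to the thick ascending limb than to S1 cells in these markers.

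Markers of other cells were higher in the labelled cycling cells of day 10. Umod, a protein made by the thick ascending limb, stood at 267 and 150 CPM at 48 h and 624, 384 and 1224 CPM at day 10. Slc12a3, the distal tubule salt transporter, stood at 10 and 0 CPM at 48 h and at 405, 239 and 411 CPM at day 10. Macrophage markers summed to 17 and 20 CPM at 48 h and 426, 140 and 175 CPM at day 10. None of these 3 overlapped between the times. Cell by cell, the proximal tubule list led the other tubule lists in 78 of 117 and 65 of 86 labelled cycling cells at 48 h, and in 10 of 34, 3 of 18 and 7 of 35 at day 10. In S1 cells it led in 244 of 252 cells of mouse 1, 225 of 226 of mouse 2, 344 of 352 of mouse 3, 107 of 117 of mouse 4 and 340 of 345 of mouse 5. Results for the proximal tubule are therefore given with and without the labelled cycling cells, and those without them are described first.

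**Figure D1:**
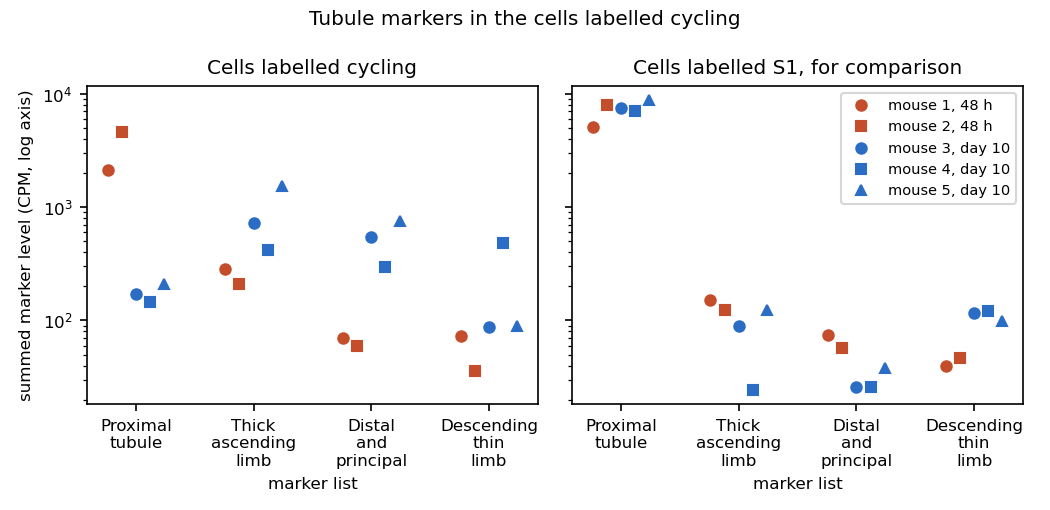
Summed level of 4 tubule marker lists (CPM, log axis) in the cells labelled cycling (left) and in cells labelled S1 (right), 1 point per mouse. In the cells labelled cycling the proximal tubule markers are at 2141 and 4564 CPM at 48 h and at 145 to 211 CPM at day 10, while the S1 cells stay between 5123 and 8746 CPM.

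Cells positive for Mki67 or Top2a, with at least 1 UMI of either after thinning, made up 4.45% and 4.41% of all cells at 48 h and 2.37%, 1.89% and 2.67% at day 10. The groups did not overlap. With 2 mice against 3, the two-sided p of an exact permutation test over mice was taken as 2 times the smaller one-sided p. Taken so, it cannot fall below 0.2, and no share in any type gave less. The background for these shares was taken from immune cluster 5, which carried 53600 to 213162 CPM of the neutrophil markers; mature neutrophils do not divide. There 1.20% and 0.577% of cells were positive at 48 h and 0.873%, 1.11% and 1.90% at day 10. Median depth before thinning was 2556 to 4831.5 UMIs there and 6801 to 16760 UMIs in the proximal tubule without labelled cycling cells. A share in that range of 0.577% to 1.90% is read as background. The range rests on few positive cells, among 332 and 520 cells at 48 h and 229, 90 and 211 at day 10, and is not a sharp limit.

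At 48 h the positive cells above that background lay mainly in the proximal tubule and in immune cluster 0. In mouse 1 they also lay in principal cells and in tubule cells labelled TEC. Immune cluster 10 was above the background in both mice of 48 h, on 2 positive cells each. Proximal tubule cells without the cycling label were positive in 4.27% (53 of 1242 cells, mouse 1) and 7.47% (51 of 683, mouse 2). At day 10 their share was 0.701%, 0.633% and 0.993% (8, 2 and 10 cells), inside the neutrophil range. The means were 5.87% ± 2.26 (SD, n = 2) and 0.775% ± 0.191 (SD, n = 3). With the labelled cycling cells included, the proximal tubule was positive in 8.61% and 12.7% of cells at 48 h and 2.38%, 3.59% and 2.88% at day 10. These shares were above the neutrophil range at both times. The cycling label was made from expression, so leaving its cells out takes away positive cells. A day 10 share inside the neutrophil range thus depends on that label and is not an independent result. By labelled segment, S1 cells were positive in 8.33% and 10.2% at 48 h and 1.42%, 0.855% and 1.45% at day 10. Cells labelled injured were positive in 3.05% and 10.1% at 48 h and 0.984%, 0% and 1.20% at day 10.

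Immune cluster 0 carried all 5 macrophage markers, at a summed 7237 and 4772 CPM at 48 h and 11937, 10123 and 11109 CPM at day 10. Its share of positive cells was 9.53% and 7.33% at 48 h (49 of 514 and 45 of 614 cells) and 3.56%, 2.71% and 3.99% at day 10 (66 of 1856, 43 of 1584 and 70 of 1753). The means were 8.43% ± 1.56 (SD, n = 2) and 3.42% ± 0.65 (SD, n = 3). This cluster was above the neutrophil range in all 5 mice, at both times. Neutrophil markers in it stood at 1398 and 3245 CPM at 48 h and 49.5, 80.9 and 94.9 CPM at day 10, and their part in the difference was not tested.

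Principal cells of the collecting duct, which reabsorb water, were positive in 10.8% (14 of 130) in mouse 1, 1.49% (2 of 134) in mouse 2 and 5.56%, 2.56% and 3.70% in mice 3, 4 and 5. The mice of 48 h lay on either side of those of day 10. Principal cells of mice 3, 4 and 5 were all above the neutrophil range. Immune cluster 10, which carried 3244 to 6522 CPM of the T and NK cell markers, was positive in 3.85% and 6.45% at 48 h (2 cells each) and 15.4% (19 of 123), 5.71% and 5.38% at day 10, and these ranges overlapped. This cluster too was above the neutrophil range in all 5 mice, on few cells in most of them. The other types were at or near the background: thick ascending limb 0% to 0.58% over the 5 mice, distal tubule without principal cells 0% to 1.24%, endothelial cells 0.705% to 1.60%, intercalated cells 0% to 1.39% and descending thin limb 0% to 1.27%. Interstitial cells ranged from 0% to 1.74% in 4 mice and reached 3.26% in mouse 5. The tubule cells labelled TEC ranged from 1.13% to 3.86%, and the highest value, above the background, was that of mouse 1 at 48 h. In immune cluster 12, with 9 to 36 cells per mouse, 0 cells were positive in each mouse, which allows up to 9.74% in the largest of them (exact 95% binomial interval).

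**Figure D2:**
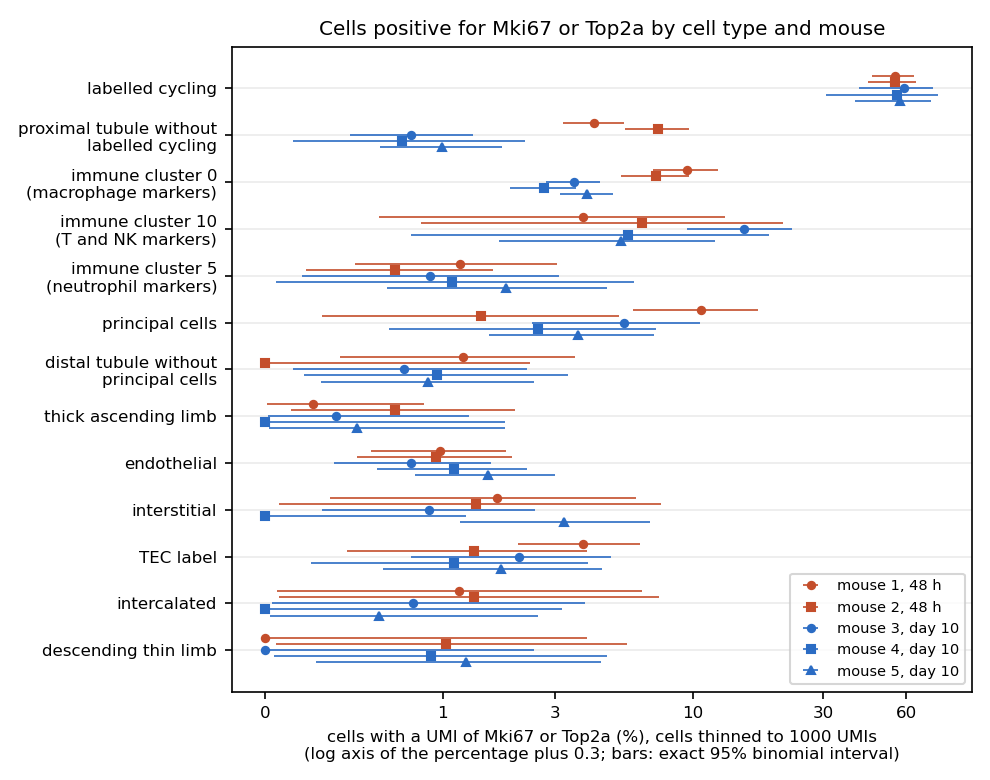
Percentage of cells with a UMI of Mki67 or Top2a after thinning to 1000 UMIs (log axis of the percentage plus 0.3), by cell type, 1 point per mouse with its exact 95% binomial interval, which covers counting error only. Proximal tubule without labelled cycling cells is at 4.27% and 7.47% at 48 h and at 0.633% to 0.993% at day 10, beside 0.577% to 1.90% in immune cluster 5.

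Counting the labelled cycling cells by their label, most positive cells of a 48 h kidney were proximal tubule. Without the labelled cycling cells, the proximal tubule did not hold most of them in either mouse of 48 h. At day 10 immune cluster 0 was the largest single source. Proximal tubule cells, labelled cycling ones included, were 53.7% and 59.8% of the 218 and 164 positive cells at 48 h and 20%, 16.2% and 21.0% of the 140, 74 and 143 at day 10. Cluster 0 gave 22.5% and 27.4% of them at 48 h and 47.1%, 58.1% and 49.0% at day 10. Neither share overlapped between the times. Cluster 0 also held more of the cells at day 10 (1584 to 1856 per mouse, against 514 and 614), so its larger part of the positive cells went together with a lower share of its own cells being positive. Cluster 10 gave 13.6% of the positive cells in mouse 3 and 0.917% to 3.5% in the other mice.

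**Figure D3:**
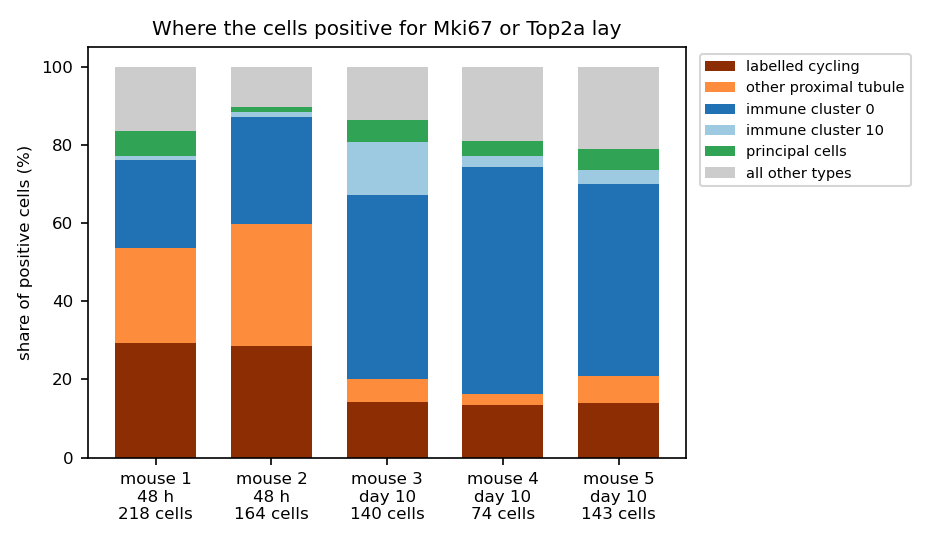
Share of the positive cells (%, stacked to 100) in each mouse by cell type, with the number of positive cells under each bar. Proximal tubule with the labelled cycling cells is 53.7% and 59.8% of them at 48 h and 16.2% to 21.0% at day 10, and immune cluster 0 is 22.5% and 27.4% and then 47.1% to 58.1%.

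Summed levels gave an order of some of the types for each phase. At 48 h the summed S-phase members stood highest, among the plotted types other than the labelled cycling cells, in immune cluster 0 (1272 and 1142 CPM) and cluster 10 (976 and 1387 CPM), whose mice overlapped, while principal cells had 1130 CPM in mouse 1 and 274 CPM in mouse 2. The proximal tubule without labelled cycling cells stood at 530 and 643 CPM, endothelial cells at 393 and 360 CPM and the thick ascending limb at 218 and 198 CPM, with no overlap between these 3. Other types, among them interstitial cells and the descending thin limb, are not placed in this order. At day 10 the 176, 204 and 185 CPM of the proximal tubule lay below every mouse of the thick ascending limb (302, 305 and 282 CPM) and of endothelial cells (375, 384 and 391 CPM). The means of the proximal tubule were 587 ± 80.3 CPM (SD, n = 2) and 188 ± 14.3 CPM (SD, n = 3). Endothelial cells overlapped between the times.

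The summed G2/M members of the proximal tubule without labelled cycling cells stood at 324 and 490 CPM at 48 h and 119, 120 and 131 CPM at day 10, without overlap. In cluster 0 they stood at 748 and 489 CPM at 48 h and 474, 222 and 568 CPM at day 10, and these overlapped, while its S-phase sum of 504, 337 and 474 CPM at day 10 lay below both mice of 48 h. The ratio of the S-phase to the G2/M sum in cluster 0 was 1.70 and 2.34 at 48 h and 1.06, 1.52 and 0.836 at day 10. Outside the labelled cycling cells the highest G2/M sums of day 10 were in cluster 10 of mice 3 and 5 (2330 and 1357 CPM), but mouse 4 had 156 CPM there. In the neutrophil-marker cluster 5 the G2/M sum was 107 to 211 CPM over the 5 mice.

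**Figure D4:**
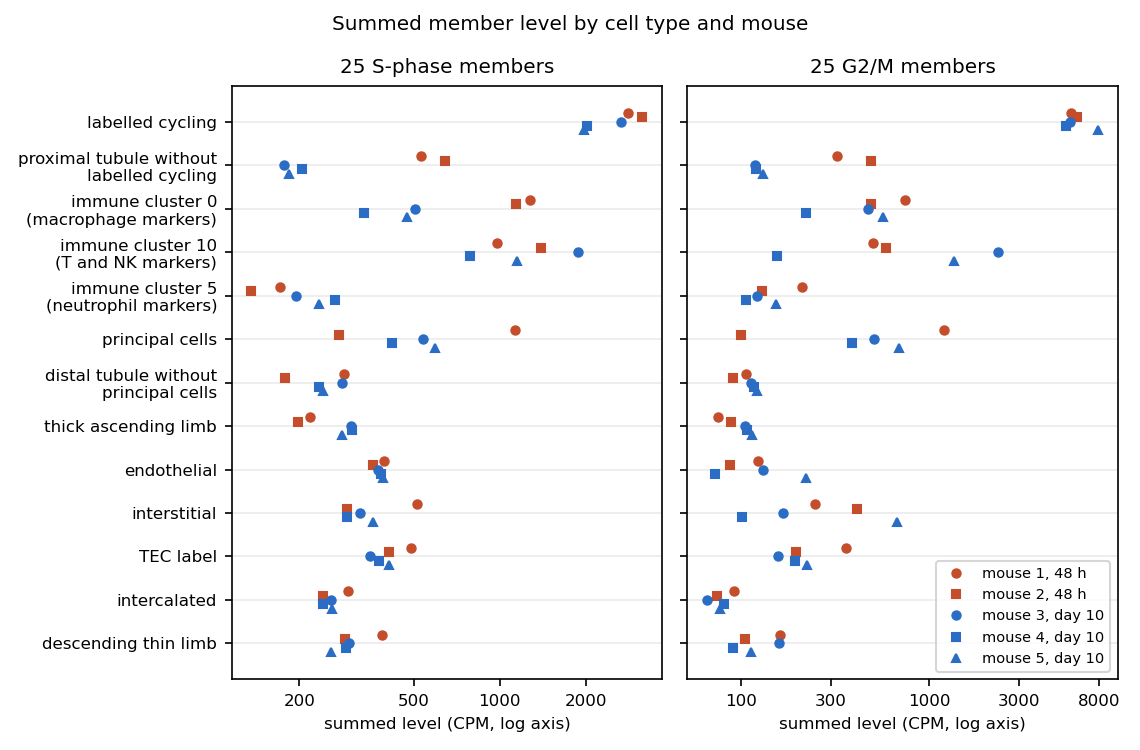
Summed level of the 25 S-phase members (left) and the 25 G2/M members (right) in CPM (log axes) by cell type, 1 point per mouse. In immune cluster 0 the S-phase sums of 48 h (1272 and 1142 CPM) lie above those of day 10 (337 to 504 CPM), while the G2/M sums of the 2 times overlap.

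Between the times, nearly the whole group fell in the proximal tubule cells outside the cycling label. That label was made from expression, so leaving these cells out uses the members themselves and is not an independent test. With the labelled cells included, 35 of 51 members were lower. In proximal tubule cells without that label, 45 of 51 members were lower at day 10 and 0 higher, beside 2.17% of all genes tested that were lower (edgeR quasi-likelihood test with Benjamini-Hochberg adjustment over all genes of the type, threshold 0.05, as for every call below). The 45 were 23 S-phase and 22 G2/M members. The median log2 fold change was -2.88 over the members, -2.32 for S phase and -3.40 for G2/M, and 0.03 over all genes tested. All 25 S-phase members and 24 of the G2/M members had CPM at day 10 below both mice of 48 h. Leaving out 1 mouse at a time gave 17 to 42 members lower, with the 27 and 17 calls without mice 3 and 5 being under the main count by more than 1.5 times. With the cells of each mouse thinned to an equal number and depth, 4 passed.

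Pcna, the clamp that holds polymerases on DNA, stood at 83.1 and 113.4 CPM at 48 h and 28.1, 39.6 and 29.3 CPM at day 10 (log2 change -1.88, SE 0.20, adjusted p = 0.00875). Hells, a chromatin remodeller of S phase, stood at 36.2 and 50.2 CPM and then 4.09, 4.55 and 4.45 CPM (-3.57, SE 0.19, adjusted p = 0.0019). Cdc6, which loads the helicase onto DNA, had the lowest fold change of those that passed, with 4.85 and 5.40 CPM and then 0.144, 0.314 and 0.20 CPM (-4.91, SE 0.38, adjusted p = 0.00396). For all 3 both mice of 48 h were above every mouse of day 10. The nucleotide enzymes fell less, Tyms by 1.33 and Dut by 1.07 on the log2 scale, and Slbp, which binds histone mRNA, fell by 0.90 (adjusted p = 0.0464).

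Among the G2/M members, Mki67 stood at 25.4 and 41.7 CPM at 48 h and 0.962, 2.67 and 2.65 CPM at day 10 (log2 change -4.33, SE 0.41, adjusted p = 0.0065). Top2a stood at 27.4 and 42.4 CPM and then 1.54, 3.77 and 2.85 CPM (-4.04, SE 0.34, adjusted p = 0.00458). The kinetochore protein Spc25 fell by 2.17 on the log2 scale, from 31.8 and 62.6 CPM to 10.4, 15.1 and 12.5 CPM. Stmn1, a microtubule-destabilizing protein, fell by 0.99, from 131 and 137 CPM to 87.2, 67.0 and 86.5 CPM. These 4 did not overlap between the times. The 6 members that did not pass were Mcm10 (adjusted p = 0.0806), Tipin (0.0974), Ccnb2 (0.0568), Nusap1 (0.108), Cenpa (0.298) and Ccnd1 (0.362).

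Ccnd1, the cyclin that drives cells out of G1, went the other way in level, at 63.3 and 75.3 CPM at 48 h and 96.3, 143 and 88.2 CPM at day 10, without overlap, but its log2 fold change of 0.38 (SE 0.22) did not pass. Genes outside the group are given by their own counts. Of 46 other replication genes tested, 25 were lower and 0 higher (median -1.17), with Rfc2 of the clamp loader (-1.04), the replication inhibitor Gmnn (-1.22) and the chromatin factor Atad2 (-3.21) named by level. Of 52 other mitosis genes tested, 38 were lower and 0 higher (median -2.84), among them the condensin subunit Smc4 (-0.76) and the kinetochore subunit Spc24 (-2.34). Of 27 genes of cell cycle entry (median -0.41), 7 were lower, among them the cyclin Ccnd3 (-1.02), E2f3 (-1.17) and the Rb relative Rbl1 (-1.47), and 0 were higher.

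**Figure D5:**
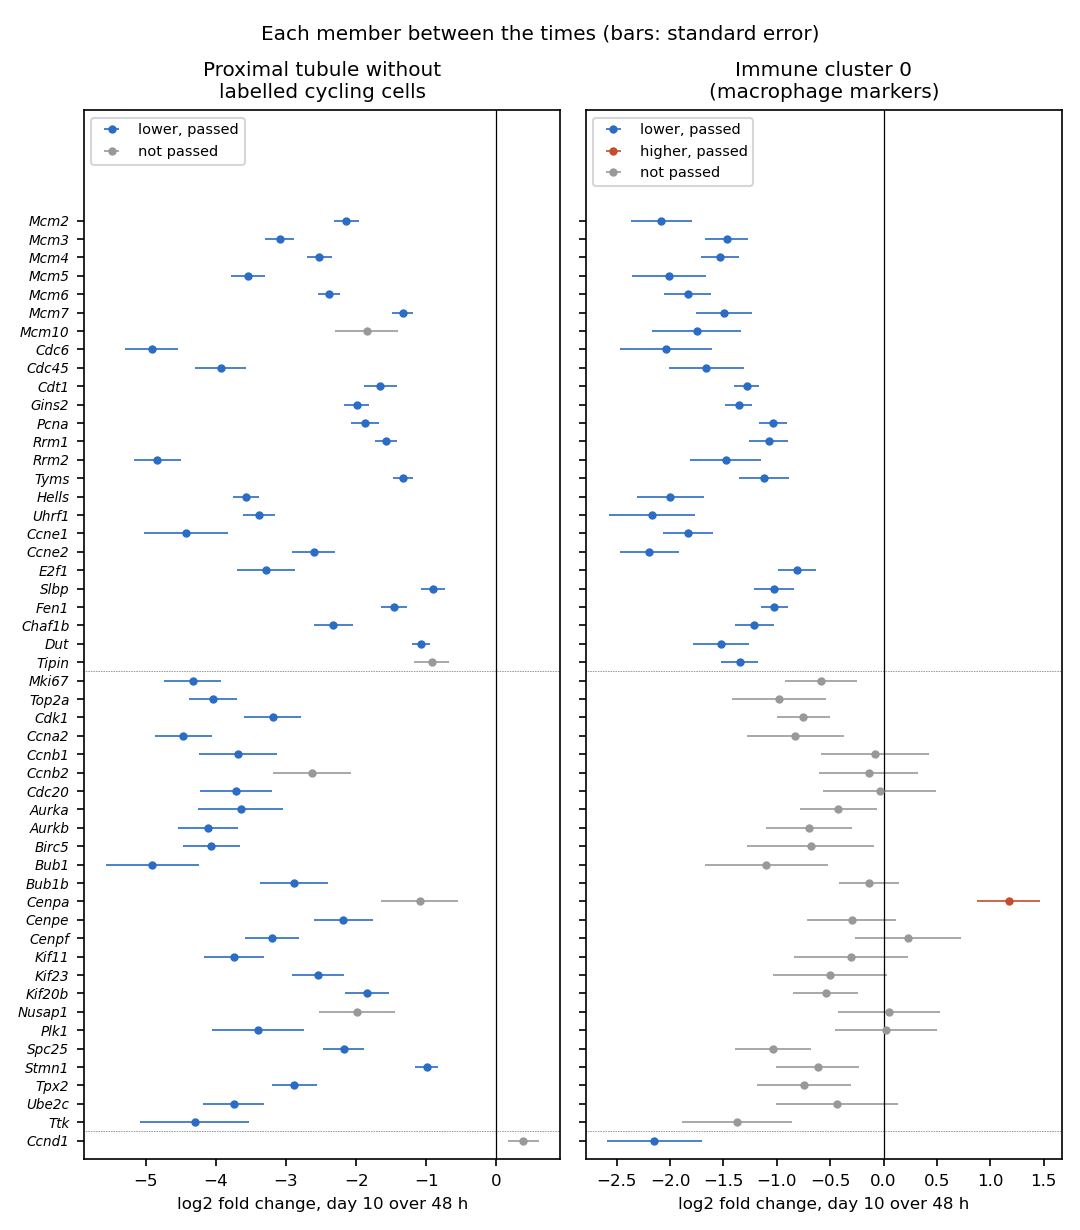
Log2 fold change of day 10 over 48 h with its SE for each of the 51 members, in proximal tubule without labelled cycling cells (left) and in immune cluster 0 (right). Dotted lines divide S-phase members (top), G2/M members and Ccnd1. On the left 45 members passed lower, and on the right 25 S-phase members and Ccnd1 passed lower and Cenpa passed higher.

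With the labelled cycling cells included, fewer members passed. The proximal tubule markers of these cells together summed to 4454 and 7569 CPM at 48 h and 6133, 5495 and 7104 CPM at day 10, the macrophage markers to 19.1 and 16.3 CPM and then 78.4, 149 and 140.3 CPM, and the neutrophil markers to 26.8 and 416 CPM and then 7.58 to 20.7 CPM; their part in the counts was not tested. In the whole proximal tubule 35 of 51 were lower (23 S-phase, 12 G2/M) and 0 higher, beside 1.94% of genes lower, with a member median of -1.83. Mki67 was at 45.4 and 87.0 CPM at 48 h and 11.9, 12.5 and 28.5 CPM at day 10 (-2.14, SE 0.43, adjusted p = 0.0487), and Top2a at 48.9 and 85.6 CPM and then 15.2, 18.6 and 23.8 CPM (-2.06, SE 0.27, adjusted p = 0.0181). Pcna changed about as much as without these cells (-1.89, SE 0.21, adjusted p = 0.0125). Without mouse 2, 3, 4 or 5 the count was 19, 10, 18 or 7, and with equal numbers of thinned cells it was 11. The labelled cycling cells of day 10, 34, 18 and 35 in number, themselves kept a G2/M sum of 5579, 5325 and 7875 CPM, against 5646 and 6087 CPM at 48 h.

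Members fell in each labelled part of the proximal tubule. In S1 cells 41 of the 47 members tested were lower, beside 2.43% of genes. Hells in S1 cells went from 55.9 and 66.7 CPM to 3.95, 4.14 and 4.34 CPM (-4.03, SE 0.19, adjusted p = 7.89e-05), and Mki67 from 40.0 and 67.3 CPM to 1.32, 2.48 and 2.50 CPM (-4.85, SE 0.33, adjusted p = 0.000342). Ccne1, a cyclin of the start of S phase, had 28 and 33 UMIs in S1 cells at 48 h and 0, 1 and 0 at day 10. Without mouse 2 the count in S1 cells was 23, and with equal numbers of thinned cells it was 1.

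In cells labelled injured 36 of 50 members tested were lower, beside 3.12% of genes, with Mki67 at 23.8 and 54.9 CPM and then 1.06, 2.36 and 1.69 CPM (-5.08, SE 0.46, adjusted p = 0.0082). There Stmn1 did not pass, at 116 and 170 CPM and then 115, 125 and 124 CPM (adjusted p = 0.0892). Without mouse 2, 3 or 5 the count in these cells was 14, 8 or 14. In the S2/3 cells labelled Lrp2+, 11 of 34 members tested were lower, beside 0.702% of genes. In those labelled Lrp2-, 6 of 18 were lower, beside 0.706%, all 6 of S phase. Without mouse 1, 2 or 5 the first count was 1, 0 or 7, and without mouse 3 the second was 2. With neither labelled cycling nor injured cells, 43 of 51 proximal tubule members were lower, beside 2.29%. The numbers of members tested are those that passed a filter on low counts, and the filtered members are not counted as unchanged.

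Among positive proximal tubule cells, most S-phase members were lower at day 10 and most G2/M members did not pass. Positive here means at least 1 UMI of Mki67 or Top2a without thinning, labelled cycling cells included, in 283 and 176 cells at 48 h and 67, 39 and 87 at day 10; Mki67 and Top2a are not counted. Of the other 49 members 25 were lower, beside 6.38% of genes, and 1 was higher, beside 7.22%. The lower ones were 24 of the 25 S-phase members, all but Tipin, and Spc25. Pcna in these cells changed by -1.73 on the log2 scale (SE 0.26, adjusted p = 0.00436), E2f1 of -2.42 (SE 0.27, adjusted p = 0.00151) and Spc25 of -1.78 (SE 0.31, adjusted p = 0.00697). The centromere histone Cenpa was the higher one (1.24, SE 0.28, adjusted p = 0.0201). Without mouse 2 or 5 the lower count was 10 or 16, and 0 were higher without any 1 of mice 1, 2, 3 and 5 and 3 without mouse 4. The makeup of these cells differed between the times as described for the labelled cycling cells, and all proximal tubule cells had a median depth of 6197 and 5996 UMIs at 48 h and 12625.5, 14946 and 16589.5 UMIs at day 10; the part of either was not tested.

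Without the labelled cycling cells, both phases had lower sums in the positive cells of day 10. The 192 and 110 positive cells of 48 h held 1454 and 1922 CPM of the S-phase members, and the 35, 25 and 57 of day 10 held 245, 351 and 328 CPM. Their G2/M members other than Mki67 and Top2a summed to 777 and 1341 CPM and then 228, 232 and 263 CPM. In the negative cells the S-phase sum was 280 and 267 CPM at 48 h and 174, 187 and 173 CPM at day 10. Median depth was 6801 and 6996 UMIs per cell at 48 h and 12759.5, 15588 and 16760 UMIs at day 10, and a deeper cell more easily holds 1 UMI of either gene (8, 2 and 10 cells of day 10 were positive after thinning), so the levels per positive cell are not compared between the times at equal depth.

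In immune cluster 0 all 25 S-phase members passed as lower at day 10, while of the 25 G2/M members 0 passed as lower and 1 as higher. The phases were not tested against each other, and 21 of the G2/M members had a negative log2 fold change, 4 of all 25 with an unadjusted p under 0.05. At day 10, 26 of 51 members were lower, beside 12.5% of all genes lower, and 1 was higher, beside 11.5% higher. The 26 were all 25 S-phase members and Ccnd1. The median log2 fold change was -1.50 for S phase, -0.50 for G2/M and 0.07 over all genes tested. All 25 S-phase members had CPM below both mice of 48 h without overlap, and so did 8 of the G2/M members. Without mouse 2 the count of lower members was 2, and without mouse 1 it was 7, which leaves 1 mouse at 48 h in each case. Without mice 3, 4 or 5 it was 26, 29 or 19, and with equal numbers of thinned cells 14.

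Mcm6, a subunit of the helicase, stood in cluster 0 at 95 and 91.8 CPM at 48 h and 30.4, 17.9 and 27.5 CPM at day 10 (log2 change -1.83, SE 0.22, adjusted p = 0.00518). Pcna stood at 173 and 179 CPM and then 90.7, 71.3 and 86.2 CPM (-1.04, SE 0.13, adjusted p = 0.00572). The cyclin Ccne2 had the lowest fold change of those that passed, at 12.1 and 10.2 CPM and then 2.92, 1.70 and 2.43 CPM (-2.19, SE 0.28, adjusted p = 0.00598). All 3 separated the times. Mcm3 (-1.47, SE 0.20) and Slbp (-1.03, SE 0.18) fell as well.

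The G2/M members of cluster 0 other than Cenpa missed the threshold. Mki67 stood at 107 and 58.3 CPM at 48 h and 57.4, 34.4 and 67.3 CPM at day 10 (-0.58, SE 0.34, adjusted p = 0.247). Top2a stood at 102 and 73.8 CPM and then 52.5, 18.8 and 57.7 CPM (-0.98, SE 0.44, adjusted p = 0.15). Stmn1 and Birc5, a subunit of the chromosomal passenger complex, had adjusted p values of 0.291 and 0.439. Mouse 4 had the lowest value of all 5 mice in each of these 4 genes.

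Ccnd1 and Cenpa stood apart in cluster 0. Ccnd1 stood at 502 and 345 CPM at 48 h and 144, 45.8 and 86.1 CPM at day 10 (-2.15, SE 0.44, adjusted p = 0.0194). Cenpa stood at 19.7 and 12.8 CPM and then 39.4, 24.0 and 41.9 CPM (1.17, SE 0.30, adjusted p = 0.0351). No member was called higher without any 1 of mice 1, 2, 3 and 5, nor with equal numbers of thinned cells. Cenpa was higher at day 10 also in cells without a UMI of Mki67 or Top2a, at 11.5 and 8.09 CPM at 48 h and 30.1, 16.8 and 23.1 CPM at day 10.

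Split by positivity, without thinning, cluster 0 had 136 and 165 positive cells at 48 h and 276, 357 and 300 at day 10. In the positive cells 10 of 49 members were lower, beside 6.91% of genes, and 0 were higher: 9 S-phase members (Mcm2, Mcm3, Mcm4, Mcm6, Cdt1, Gins2, Ccne1, Ccne2 and Chaf1b) and Ccnd1. The S-phase median there was -1.32 and that of G2/M 0.15. Without mouse 1, 2 or 5 none was lower, and without mouse 4, 25 were lower and 7 higher, so this count rests on single mice. In the negative cells the S-phase members summed to 642 and 596 CPM at 48 h and 313, 266 and 296 CPM at day 10, and Mcm6 to 45.4 and 49.6 CPM and then 19.1, 14.0 and 18.6 CPM. S-phase transcripts were thus lower in both kinds of cell. Of the genes outside the group, 34 of 46 replication genes were lower and 0 higher, among them the histone chaperone Nasp (-1.11) and the ligase Lig1 (-1.81). Of 53 mitosis genes 8 were lower and 0 higher. Of 27 entry genes 12 were lower, among them Ccnd2 (-0.93), Cdk6 (-1.26) and Cdk4 (-0.53), and Rbl2 (0.71) and Tfdp2 (1.23) were higher.

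Principal cells showed no call, and the 2 mice of 48 h lay apart. Mki67 stood at 112.5 CPM in mouse 1 and 4.02 CPM in mouse 2, and at 47.8, 32.7 and 58.0 CPM in mice 3, 4 and 5. Top2a stood at 163 and 2.41 CPM and then 50.5, 32.7 and 73.0 CPM. The positive cells carried the other G2/M members too, at 2899 CPM in mouse 1 (31 cells, without thinning), 750 CPM in mouse 2 (7 cells) and 1773 to 2804 CPM at day 10. Of 51 members 0 passed, beside 0.0628% of genes called in either direction, with 1 at an unadjusted p under 0.05 and 0 by DESeq2. Without mouse 1, 4 members were higher, and without mouse 2, 6 were lower. For the distal tubule and principal cells together 0 of 51 passed, beside 0.00774%, with 1 at an unadjusted p under 0.05 and 0 by DESeq2.

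Immune cluster 10 held few cells, 52 and 31 at 48 h and 123, 35 and 93 at day 10. Mki67 stood there at 10.2 and 99.4 CPM at 48 h and 314, 4.59 and 151 CPM at day 10, and Top2a at 61.2 and 90.3 CPM and then 292, 45.9 and 228 CPM. The values of mouse 4 were the lowest, so the times overlapped. Of 25 members tested 0 passed, beside 0.0971% of genes called in either direction, with 8 at an unadjusted p under 0.05 and 0 by DESeq2, and without mouse 4, 9 were higher. A UMI of Cd3g, a chain of the T cell receptor complex, was present in 6 of 8, 5 of 6, 32 of 34, 6 of 8 and 11 of 14 positive cells (without thinning) of mice 1 to 5. Among the negative cells it was present in 32 of 44, 18 of 25, 73 of 89, 24 of 27 and 61 of 79, so positive and negative cells of this cluster both carried it.

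The thick ascending limb, which dilutes the urine, had 1 member lower, beside 5.38% of genes, and 3 higher, beside 4.98%, of 33 tested. Stmn1 stood at 27.9 and 13.7 CPM at 48 h and 66.4, 54.0 and 62.5 CPM at day 10 (1.17, SE 0.28, adjusted p = 0.0402). Mcm7 stood at 12 and 7.95 CPM and then 25.3, 22.5 and 23.2 CPM (0.87, SE 0.20, adjusted p = 0.0379). Cenpf, a kinetochore protein, was the third (2.29, SE 0.57, adjusted p = 0.0451), and the spindle motor Kif23 fell (-1.92, SE 0.35, adjusted p = 0.0197). Without any 1 of mice 2, 3, 4 and 5 none was higher, without mouse 3 or 5 none was lower, and scaling by library totals in place of TMM gave 10 higher. Mki67 there stood at 0.979 to 7.50 CPM over the 5 mice. The 1 and 3 of 33 members are near these background shares.

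In intercalated cells, which handle acid and base, 1 of 17 members tested was lower, beside 0.171% of genes: Ccnd1, at 104 and 111.6 CPM at 48 h and 30.4, 27.2 and 19.1 CPM at day 10 (-2.22, SE 0.20, adjusted p = 0.0113). It was not called without mouse 4 or mouse 5. In immune cluster 5, 1 of 6 was lower, beside 10.7% of genes: Stmn1, at 23.5 and 18.0 CPM and then 9.62, 11.4 and 14.8 CPM (-1.25, SE 0.37, adjusted p = 0.0404), which was lost without any 1 mouse and under DESeq2. In endothelial cells 0 of 40 members passed, beside 0.328% of genes called in either direction, with 3 at an unadjusted p under 0.05 and 0 by DESeq2. Pcna there stood at 67.4 and 67.9 CPM and then 63.8, 67.7 and 65.1 CPM. In interstitial cells 0 of 39 passed, beside 7.44%, with 1 at an unadjusted p under 0.05 and 0 by DESeq2. Mki67 stood there at 71.1 CPM in mouse 5 against 3.14 to 18.1 CPM in the other 4 mice, while Birc5 was highest in mouse 2 (31.4 CPM, against 26.0 CPM in mouse 5), and 1 member was lower without mouse 4. In TEC-labelled cells 0 of 14 passed, beside 0.525% (4 at an unadjusted p under 0.05, 0 by DESeq2). In the descending thin limb 0 of 25 passed, beside 5.12% (2 at an unadjusted p under 0.05, 0 by DESeq2), and 1 was lower without mouse 2.

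Whether the change over time differed from that of the proximal tubule was tested in joint edgeR fits with mouse as a block; a positive difference means that the member fell less than in the proximal tubule, or rose. In the thick ascending limb 27 members had a higher time effect and 0 a lower one, beside 3.66% of genes higher. They were 20 S-phase and 7 G2/M members, among them Hells (difference 3.76, SE 0.31, adjusted p = 0.00209). Without mouse 2, 3 or 5 the count was 16, 16 or 15. In endothelial cells 14 were higher and 0 lower, beside 0.514%: 13 S-phase members, among them Mcm3 (2.49, SE 0.21, adjusted p = 0.0022) and Hells (2.98, SE 0.34), and Stmn1. Without mouse 2, 3 or 5 the count was 4, 5 or 3.

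For immune cluster 0, 3 members were higher, beside 4.05%, and 1 lower, beside 2.89%, so that 3 and 1 of 51 lie near the shares over all genes and are not read as a result about the members. The 3 were Mcm3 (1.21, SE 0.21, adjusted p = 0.0254), Cdc45 (1.59, SE 0.36, adjusted p = 0.0467) and E2f1 (2.37, SE 0.48, adjusted p = 0.0357), and the 1 was Ccnd1 (-2.55, SE 0.60, adjusted p = 0.0495). Without mouse 2, 3 or 5 none was higher and without mouse 4, 12 were; Ccnd1 was lost without any 1 of mice 1, 2, 3 and 5. Against the proximal tubule without labelled cycling cells 23 were higher, so the count depended on the reference. The share over all genes is not given for that reference, and the 23 are not read as a result either.

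For interstitial cells 9 were higher, beside 1.85%, and 1, Ccnd1 (-1.55, SE 0.29, adjusted p = 0.0149), was lower, beside 2.27%. Without mouse 1, 2, 3 or 5 the higher count was 4, 0, 3 or 3, Ccnd1 was lost without mouse 1, and the limma test of each mouse's log2 ratio between the types called 5 higher. For the distal tubule and principal cells 0 differed, beside 0.304%, with 22 at an unadjusted p under 0.05 and 0 by limma, but 48 were higher without mouse 1. Between principal cells and the rest of the distal tubule 0 differed, beside 1.12%, with 6 at an unadjusted p under 0.05 and 0 by limma; without mouse 1, 3 were higher and 1 lower, and without mouse 2, 5 were lower.

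For immune cluster 10, edgeR called 36 members with a higher time effect than the proximal tubule, beside 1.39% of genes, but the limma test called 0, with 20 at an unadjusted p under 0.05. By limma the difference was 3.12 for Mki67 (SE 1.68, adjusted p = 0.604) and 3.39 for Hells (SE 0.52, adjusted p = 0.23). Without mouse 3 the edgeR count was 16. The day 10 mice of this cluster ranged from 4.59 to 314 CPM in Mki67, so the 36 calls are not taken as a difference.

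With all cells of a mouse summed, 9 members were lower, beside 0.645% of genes, and 1 higher, beside 1.19%. The 9 were the S-phase members Mcm2, Mcm3, Mcm4, Mcm5, Mcm6, Pcna, Rrm2, Ccne1 and Ccne2, with Pcna at 84.9 and 101 CPM at 48 h and 60.3, 62.6 and 58.8 CPM at day 10 (-0.74, SE 0.11, adjusted p = 0.0435). The member that rose was Cenpa, at 6.75 and 7.41 CPM and then 16.5, 15.6 and 19.3 CPM (1.14, SE 0.14, adjusted p = 0.0388). Without mouse 1, 2, 3 or 5 no member was called in either direction, and without mouse 4, 11 were lower; with DESeq2 29 were lower. Mki67 did not pass, at 35.1 and 37.0 CPM and then 26.9, 21.0 and 36.7 CPM (adjusted p = 0.285). In sums over the whole kidney the makeup of the cells also differs between the times, and its part was not tested.

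The share of each member's UMIs inside positive cells is a description, since Mki67 and Top2a, which define these cells, are themselves G2/M members. Cells with a UMI of Mki67 or Top2a, without thinning, were 12.3% and 12.4% of cells at 48 h and 8.32%, 12.4% and 9.89% at day 10, and held 17.0%, 17.8%, 11.6%, 19.4% and 13.7% of all UMIs in mice 1 to 5. Of a G2/M member's UMIs they held a median of 81.5% and 82.9% at 48 h and 80.9%, 73.0% and 87.0% at day 10 (23 members, without the 2 that define the cells). Of an S-phase member's UMIs they held 55.7% and 59.0% at 48 h and 39.6%, 35% and 40.0% at day 10. The G2/M shares overlapped between the times and the S-phase shares did not. Positivity was taken without thinning here, and the part of depth, which was higher at day 10 over all cells, was not tested.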

How the data were processed

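The build mm10 and the tools Cell Ranger 6.0.2 and Seurat 4.0.5 are those of the submitters' processing notes; the matrix headers give Cell Ranger 6.0.0. The authors deposited raw UMI counts per gene and cell, and a table with cell type labels, clusters and the percent of mitochondrial UMIs. Cells and labels were used as the authors deposited them, and clusters inside the immune label are called by number. Doublets were not called again here. The members and lists were chosen with earlier results of these data known.

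UMIs were summed per mouse and cell type and tested with edgeR 4.0.16 (filterByExpr, TMM, quasi-likelihood F test between the times, Benjamini-Hochberg adjustment over all genes of the type, threshold 0.05) where each library held at least 20 cells of the type. The replicate is the mouse, and the p-values are for these 5 samples. An edgeR p-value is not a direct measure of a gene's spread between mice. For the immune cluster with T and NK cell markers, the difference of time effects in Mki67 had an adjusted p of 3.99e-22 by edgeR and 0.604 by limma. For the thick ascending limb and endothelial cells, limma called 26 and 12 members with a higher time effect than the proximal tubule. Differences of time effects used the model mouse, type and type by time. Tests of types against each other at 1 time are not reported, since the labels were made from the same genes. In simulated data with 4-fold changes, 100% of changed genes were recovered in the proximal tubule fit and 83.5% in a difference of time effects. With 2-fold changes these shares were 14.5% and 0.5%. All simulated counts used proximal tubule means, the same fixed dispersion for every gene and no mouse effect. Changed genes were taken from those with higher counts. The shares therefore do not cover members with few UMIs or types whose mice lie further apart. Alternatives were DESeq2 1.42.0, other scalings, no filter, thinned cells, each mouse left out, and limma 3.58.1 on log2 ratios between types.

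The rule for values by mouse was the 4 S-phase and 4 G2/M members of highest level per type with 5 or more calls. Mki67, Top2a, Ccnd1 and the lowest and highest fold change that passed were added to them. The text follows this rule only in part. Some of these members are given by fold change alone or left out, and in some types none is given by mouse. The members shown are therefore not fixed by level. Hells, Mcm6 and other members are given besides, chosen after their values were seen. Cdt1, Rrm1, Chaf1b and some other members overlap another gene model on their strand in GENCODE M21, so their counts are uncertain. Intervals are exact binomial (95%) and cover counting error only.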

Additional observations from a re-analysis of the deposited data

Results flagged for a closer look

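The test of the difference from the time effect of the proximal tubule (edgeR quasi-likelihood test with Benjamini-Hochberg adjustment, mouse as a block) called members in 5 types. For the thick ascending limb 27 were higher, beside 3.66% of all genes, for endothelial cells 14, beside 0.514%, and for interstitial cells 9, beside 1.85%. The 3 higher and 1 lower for immune cluster 0, beside 4.05% and 2.89%, and the 1 lower for interstitial cells, beside 2.27%, lie near the shares over all genes. For immune cluster 10, 36 were higher by edgeR, beside 1.39%, but 0 by limma, and these are not taken as a difference.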

How the results depend on the processing

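No paired analysis was possible because the mice of the 2 times carry different numbers and each mouse was taken at 1 time. With 1 mouse of 48 h left out, the remaining one is assumed to vary like the mice of day 10. The named members of the proximal tubule and immune cluster 0 kept their direction under every alternative run.

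Leaving out 1 mouse at a time, the count of members lower at day 10 ranged from 0 to 11 for all cells, 7 to 41 for the proximal tubule, 17 to 42 without labelled cycling cells, 23 to 40 in S1 cells, 0 to 16 and 2 to 8 in Lrp2+ and Lrp2- S2/3 cells, 8 to 41 in injured cells, 2 to 29 in immune cluster 0, 0 in cluster 5, 0 to 1 in the thick ascending limb, descending thin limb, intercalated and interstitial cells, and 0 to 6 in principal cells. It was 10 to 26 in positive proximal tubule cells and 0 to 25 in positive cells of cluster 0. Counts higher ranged from 0 to 1 for all cells, Lrp2- cells and cluster 0, 0 to 9 in cluster 10, 0 to 4 in the thick ascending limb and principal cells, 0 to 3 and 0 to 7 in the positive cells. Counts of higher time effects ranged from 0 to 12 for cluster 0 and interstitial cells, 15 to 31 for the thick ascending limb, 0 to 48 for distal tubule and principal cells, 3 to 14 for endothelial cells, 16 to 43 for cluster 10 and 0 to 3 for principal cells against the other distal cells. Lower ones ranged from 0 to 1 for cluster 0 and interstitial cells and 0 to 5 for principal cells.

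DESeq2 called 29 members lower for all cells, 17 in Lrp2+ cells and 0 in cluster 5. Library totals gave 4 lower for all cells, 0 lower and 2 higher in cluster 5, and 10 higher in the thick ascending limb. Without the filter on low counts 17 were lower for all cells, 28 in Lrp2+, 16 in Lrp2- cells and 2 in cluster 5, 1 was higher in injured cells, 12 in cluster 10 and 5 in the thick ascending limb, with 1 lower and 1 higher in the descending thin limb and 2 and 2 in interstitial cells. With equal numbers of thinned cells, and so fewer UMIs, the lower counts were 11 for the proximal tubule, 4 without labelled cycling cells, 6 without these and injured cells, 1 in S1, 0 in Lrp2+ cells, 14 in cluster 0 and 0 in the thick ascending limb, and 0 were higher in cluster 0, in the thick ascending limb and for all cells. With 2 UMIs needed for a positive cell, 0 were lower in cluster 0. Against the proximal tubule without labelled cycling cells, higher time effects numbered 23 for cluster 0, 22 for endothelial and 16 for interstitial cells. The share over all genes is not given for that reference. By limma, against the whole proximal tubule, higher time effects numbered 5 for interstitial cells and 0 for cluster 10. The cause of these changes was not tested.

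The difference in the share of positive cells (day 10 minus 48 h, percentage points) was -7.73 for the proximal tubule, -13.3 without thinning, -9.83 at 2000 UMIs, -3.29 with 2 UMIs and -1.98 with both genes needed. Without labelled cycling cells it was -5.09, and -10.2, -6.95, -1.37 and -0.655 in turn, and -3.68 with Cdk1 or Birc5. For cluster 0 it was -5.01, and -8.49, -6.25, -1.19, -0.90 and -2.47. Leaving out 1 mouse these ranged from -9.79 to -5.66, -6.69 to -3.49 and -6.11 to -3.91. For principal cells it was -2.19, but 0.35 with Cdk1 or Birc5 and 2.45 without mouse 1 (range -6.83 to 2.45). The log2 ratio of the summed S-phase level was -1.55 in the proximal tubule and -1.76 as the median over members, with a range of -1.74 to -1.33 over left-out mice, and that of G2/M -1.56 to -0.815. Without labelled cycling cells it was -1.64, and -1.87 without the 3 members of highest level and -2.00 as the median (range -1.77 to -1.49). That of G2/M was -1.72, and -2.78 and -2.97 (range -1.99 to -1.39). It turned for S phase in cluster 10 (0.11, but -0.13 without mouse 1 and -0.28 without mouse 3, range -0.28 to 0.38) and, without mouse 1, in principal cells (S phase -1.13 to 0.92, G2/M -1.17 to 2.41 over left-out mice).

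Equal numbers of thinned cells gave no fit in Lrp2-, injured, cluster 5, cluster 10, descending thin limb, intercalated and interstitial cells, and 2 UMIs per positive cell gave none in the proximal tubule.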
